A study of Mus musculus with 4 samples.

Results

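The genes described here encode the nuclear part of the oxidative phosphorylation machinery. They were taken by name alone: every gene symbol that starts with Nduf, Uqcr, Cox4, Cox5, Cox6, Cox7, Cox8 or Atp5, without symbols that contain -ps. This gave 89 of the 32285 genes counted, and the rule uses no measured value. By symbol they fell into 38 genes of complex I, 8 of complex III, 18 of complex IV, 17 of the ATP synthase and 8 assembly factors of complex I, the Ndufaf genes. Ndufa4 is grouped with complex I by its symbol, although its protein is now placed in complex IV. Complex II, cytochrome c and cytochrome c1 have other names and are given at the end.

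The cells were CD4 T cells of B6.H2g7 mice, labelled B6.NOD-(D17Mit21-D17Mit10)/LtJ and aged 6 to 8 weeks, a C57BL/6 strain that carries the major histocompatibility region of NOD mice. The labels state that 5000000 column-purified cells were transferred into NOD.Rag1null mice, NOD animals that have no T or B cells of their own, and that live CD4 T cells were sorted from the host spleens on day 14. Each of 2 hosts, mouse 1 and mouse 2, gave 1 gene expression library and 1 T cell receptor library made with the 10x 5′ kit, and both hosts had the same treatment. All comparisons are therefore between classes of cells within the same 2 hosts: cells whose β chain used TRBV26 (the segment of Vβ3), TRBV23 (Vβ20) or neither, called other cells; cells of clonotypes of different size; and cells with or without a UMI of Foxp3, the transcription factor of regulatory T cells.

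The kept cells numbered 5993 in mouse 1 and 6332 in mouse 2, at median depths of 5596 and 6219.5 UMIs, and they held 38725969 and 44796902 UMIs. Between the libraries 166 cell barcodes were shared, 58 of them among kept cells. The T cell marker Cd3e was at 1502 to 1728 CPM (UMIs of a gene per 1000000 UMIs of the class) over the V gene classes. Markers of other cell types were low: over the V gene classes 6 macrophage markers summed to 26.3 to 39.9 CPM, 2 of CD8 T cells to 8.28 to 10.1 CPM with Cd8a at 0, 4 of dendritic cells to 2.81 to 4.78 CPM with Siglech at 0, and 2 of platelets to at most 0.0506 CPM with Ppbp at 0. The 4 markers of B cells summed to 1.25 to 6.69 CPM. The 3 erythroid markers summed to 3.70 to 51.9 CPM except in TRBV23 cells of mouse 2, where they reached 265 CPM.

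Oxidative phosphorylation takes place in the inner mitochondrial membrane. Complex I and complex II pass electrons from NADH and succinate to ubiquinone, complex III hands them to cytochrome c, and complex IV reduces oxygen, while complexes I, III and IV pump the protons that drive the ATP synthase. Most subunits are nuclear genes, a small core is encoded by mitochondrial DNA, and activated T cells are known to enlarge their mitochondria before they divide.

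Nearly the whole machinery was detected. Of the 89 genes 83 had enough counts to be tested in the V gene classes and 76 averaged at least 20 CPM. The level of a gene is its CPM over a class, and because the 5′ kit counts captured transcript ends these levels were not divided by transcript length. A sum over a class cannot tell more cells with a transcript from more transcripts per cell. The most abundant were Cox4i1 at 890 CPM, the main isoform of complex IV subunit 4, Cox8a at 882 CPM, a very small subunit of that complex, and Atp5g3 at 805 CPM, a gene for subunit c of the ATP synthase. They were followed by Atp5g2 at 684 CPM, the ATP synthase subunits Atp5e at 621 CPM and Atp5h at 601 CPM, the complex III hinge protein Uqcrh at 614 CPM and the catalytic β subunit Atp5b at 560 CPM. The complex I core subunit Ndufs1 averaged 40.4 CPM and the accessory subunit Ndufb4 11.1 CPM. Many of these genes have processed pseudogenes or close copies, so single levels can carry reads shared between copies, and overlapping or antisense transcripts are uncertain in the same way.

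The genes for tissue isoforms were low. Cox7a2, the widely expressed form of subunit 7a, averaged 274 CPM, while the muscle form Cox7a1 lay between 0.32 and 1.04 CPM. Cox6a1 averaged 307 CPM, and its muscle counterpart Cox6a2 reached at most 0.317 CPM. Cox4i2, the isoform tied to low oxygen, reached 0.296 CPM at most, Cox8b reached 0.038 CPM, and Cox7b2, Cox8c and Ndufa4l2 had no UMI in any V gene class, which in the smallest class allows up to 0.623 CPM. These 6 genes were not tested, and Atp5if1, the gene of the ATP synthase inhibitor, was not found under that symbol.

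Subunit c, which forms the rotating ring of the ATP synthase, has 3 genes whose mature proteins are the same but whose regulation differs. Their 300-base promoter windows, 250 bases before and 50 after the first start listed for each gene, are printed because the balance of these genes differed between classes of cells below. They come from the RefSeq annotation of GRCm38.p6, at chr11:96075582-96075881 for Atp5g1, chr15:102670998-102671297 for Atp5g2 and chr2:73911277-73911576 for Atp5g3, all on the minus strand and written 5′ to 3′ along the gene. Capitals mark matches on either strand to the cores of motifs known from respiratory genes, which were CGCANGCG for NRF1, CCGGAAG for ETS factors, AAGATGGCG for YY1 and AAGGTCA for estrogen-related receptors.
Atp5g1: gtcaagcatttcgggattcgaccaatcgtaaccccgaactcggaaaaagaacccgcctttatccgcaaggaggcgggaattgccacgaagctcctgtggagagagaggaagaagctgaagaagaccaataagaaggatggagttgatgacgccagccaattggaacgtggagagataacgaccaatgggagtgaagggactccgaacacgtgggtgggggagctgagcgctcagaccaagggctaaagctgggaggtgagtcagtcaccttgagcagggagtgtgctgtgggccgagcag
Atp5g2: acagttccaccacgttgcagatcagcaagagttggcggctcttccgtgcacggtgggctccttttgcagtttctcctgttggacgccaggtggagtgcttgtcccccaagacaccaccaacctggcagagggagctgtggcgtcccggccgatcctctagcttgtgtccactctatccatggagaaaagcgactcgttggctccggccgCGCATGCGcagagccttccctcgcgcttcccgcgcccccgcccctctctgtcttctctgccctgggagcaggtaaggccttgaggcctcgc
Atp5g3: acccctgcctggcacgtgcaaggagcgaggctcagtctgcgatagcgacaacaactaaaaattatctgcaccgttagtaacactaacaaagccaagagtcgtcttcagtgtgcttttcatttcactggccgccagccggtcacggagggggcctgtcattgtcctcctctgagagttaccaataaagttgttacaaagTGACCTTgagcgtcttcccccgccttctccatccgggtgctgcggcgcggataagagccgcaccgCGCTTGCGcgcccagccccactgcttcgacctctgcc
The window of Atp5g2 held 1 NRF1 core, starting 41 bases before the start, and that of Atp5g3 held an estrogen-related receptor core 52 bases before it and an NRF1 core 13 bases after it. None of the motif cores was found in the Atp5g1 window. Over the 73 genes that had a promoter entry, 25 (34.2%) held an NRF1 core against 8.42% of all 27025 promoters, and 16 (21.9%) held an ETS core against 9.12%. The YY1 core was found in 7 genes (9.59%) against 1.495% of all promoters, and the estrogen-related receptor core also in 7 genes (9.59%) against 4.66%. In all, 41 of the 73 held at least 1 of these cores, and a match is a description of the letters only.

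Summed over all 89 genes, the machinery took nearly the same share of the transcripts in every V gene class. The share was 2.01% of UMIs in mouse 1 and 1.96% in mouse 2 among TRBV26 cells, 2.04% and 1.96% among TRBV23 cells, and 2.02% in both mice among other cells. The log2 ratio of TRBV26 to other cells averaged -0.02 ± 0.025 (SD, n = 2 mice), and that of TRBV23 to other cells -0.01 ± 0.042 (SD, n = 2 mice). Cells of clonotypes with 10 or more cells stood at 2.06% and 2.00% against 1.97% in both mice among clonotypes of 1 cell, a mean log2 ratio of 0.04 ± 0.028 (SD, n = 2 mice). Foxp3-positive cells stood at 2.05% and 2.06% against 2.01% and 1.98%, a mean log2 ratio of 0.04 ± 0.019 (SD, n = 2 mice). With 2 mice no permutation of these sums can pass a threshold, so they are given without a test.

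The summed share moved with the depth and the division of the cells. Cells with at least 3 UMIs of 10 division genes held 2.25% and 2.27% of their UMIs in these genes, against 1.93% and 1.91% in the remaining cells. After cells were thinned to 3000 UMIs the values were 2.09% and 2.15% against 1.90% and 1.88%. Cells below that depth were left out, so 5402 of 5993 cells remained in mouse 1 and 5997 of 6332 in mouse 2. The thinned share also rose over 5 groups of cells by depth, from 1.62% to 2.19% in mouse 1 and from 1.67% to 2.15% in mouse 2. The groups were equal before thinning, and in the lowest 608 of 1199 cells remained in mouse 1 and 932 of 1267 in mouse 2. Division and depth differed between the classes compared. Division is given below with the comparisons by V gene, size and Foxp3 status and with some of those within groups. Median depths in mouse 1 and mouse 2 were 5411.5 and 6261.5 UMIs in TRBV26 cells, 5680 and 6123 in TRBV23 cells and 5726.5 and 6201 in other cells. They were 5469.5 and 5745 UMIs in clonotypes of 10 or more cells and 5670 and 6541 in those of 1 cell.

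**Figure D1:**
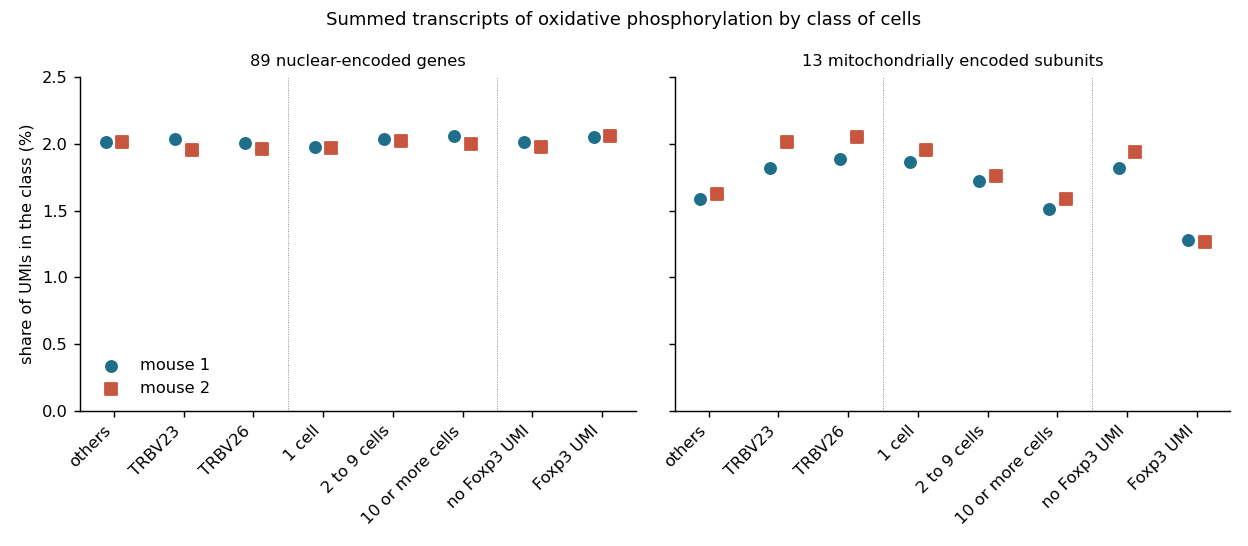
Share of UMIs (%) in the 89 nuclear genes and in the 13 mitochondrially encoded subunits, by V gene class, clonotype size and Foxp3 status, with 1 point per mouse. The nuclear share lies between 1.96% and 2.06% in every class, while the mitochondrially encoded share runs from 1.26% in Foxp3-positive cells of mouse 2 to 2.05% in TRBV26 cells of mouse 2.

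TRBV26 cells and other cells differed at few single genes, each by less than 1.25-fold. Higher in TRBV26 cells were Uqcr10, a small subunit of complex III, and Atp5g2. Lower were Cox5a, a nuclear subunit of complex IV, and Ndufa9 and Ndufa10, accessory subunits of complex I. By edgeR's quasi-likelihood test with the mouse as a block (adjusted p under 0.05, adjusted over all genes tested), 2 of 83 genes were higher, where 8.80% of all 12631 genes tested were higher, and 3 were lower, where 10.6% were lower. For 77 of the 83 genes the 95% interval of the log2 fold change lay within ±0.32, that is within 1.25-fold. The median absolute log2 fold change of the 83 genes was 0.05, that of all genes tested 0.14, and that of the 6566 genes tested at a mean of at least 20 CPM 0.09.

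Uqcr10 (chr11:4701968-4704344, minus strand) stood at 230 CPM in mouse 1 and 238 CPM in mouse 2 among TRBV26 cells, against 197 and 215 CPM among other cells, so the classes did not overlap. The log2 fold change was 0.19 (SE 0.045, 95% interval 0.09 to 0.29, edgeR adjusted p = 0.012). Atp5g2 stood at 711 and 686 CPM against 652 and 632 CPM, again without overlap, at 0.13 (SE 0.037, edgeR adjusted p = 0.032). Here and below, overlap of the 2 values per class only describes the levels of named genes. It is no separate support, and its share over all genes was not counted. Both calls were lost without the 5 largest clonotypes of each mouse, at 0.15 (edgeR adjusted p = 0.052) for Uqcr10 and 0.12 (edgeR adjusted p = 0.086) for Atp5g2. The promoter of Uqcr10 (chr11:4704295-4704594, minus strand) is printed with the same marks, because the gene also passed in TRBV23 cells and among expanded clonotypes below.
Uqcr10: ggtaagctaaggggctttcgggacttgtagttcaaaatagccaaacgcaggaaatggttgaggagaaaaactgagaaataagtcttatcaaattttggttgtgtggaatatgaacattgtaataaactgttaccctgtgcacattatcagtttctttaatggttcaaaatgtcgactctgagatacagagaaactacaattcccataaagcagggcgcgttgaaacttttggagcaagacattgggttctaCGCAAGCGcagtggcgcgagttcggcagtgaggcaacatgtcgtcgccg
It held 1 NRF1 core, which began 1 base after the start.

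Cox5a (chr9:57517328-57532427, plus strand) stood at 392 and 346 CPM in TRBV26 cells against 445 and 409 CPM in other cells. The log2 fold change was -0.21 (SE 0.043, 95% interval -0.30 to -0.11, edgeR adjusted p = 0.0050). Each TRBV26 value lay below both values of the other cells. Ndufa10, in the membrane arm of complex I, stood at 84.8 and 90.5 CPM against 104 and 103 CPM (log2 fold change -0.24, SE 0.056, edgeR adjusted p = 0.011). Ndufa9, near the ubiquinone site of that complex, stood at 56.3 and 57.1 CPM against 65.3 and 65.1 CPM (log2 fold change -0.20, SE 0.057, edgeR adjusted p = 0.028). Neither gene overlapped between the classes, and both calls were lost after cells were thinned to 3000 UMIs, at edgeR adjusted p = 0.050 for Ndufa10 and 0.28 for Ndufa9.

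By complex, 2 of 37 complex I genes passed, both lower, as did 1 of 8 complex III genes, higher, 1 of 13 complex IV genes, lower, 1 of 17 ATP synthase genes, higher, and none of the 8 assembly factors. Genes at the edges of each group that missed the threshold included the small complex I subunits Ndufa5, at 88.99 and 95.8 CPM against 79.0 and 88.0 CPM, and Ndufa3, at 166 and 181 CPM against 140 and 174 CPM. On the lower side Uqcrfs1, the Rieske iron-sulphur protein of complex III, stood at 159 and 141 CPM against 172 and 160 CPM (log2 fold change -0.15, edgeR adjusted p = 0.061). Cox4i1, the most abundant of all, stood at 915 and 871 CPM against 915 and 866 CPM, a log2 fold change of 0.01 with an interval of -0.08 to 0.10. Atp5b stood at 577 and 532 CPM against 613 and 562 CPM (log2 fold change -0.08, edgeR adjusted p = 0.22).

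The genes of subunit c did not all follow Atp5g2. Atp5g1 stood at 252 and 248 CPM in TRBV26 cells against 235 and 227 CPM in other cells (log2 fold change 0.12, edgeR adjusted p = 0.10). Atp5g3 stood at 855 and 751 CPM against 847 and 754 CPM, a log2 fold change of 0.01 with an interval of -0.07 to 0.09. The share of Atp5g3 in the summed subunit c transcripts was 47.0% and 44.6% in TRBV26 cells and 48.9% and 46.7% in other cells. It was lower in TRBV26 cells in each mouse, by about as much as the mice differed.

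Without the mouse as a block none of the 83 genes passed, while 4.49% of all genes did, and DESeq2 called 1. The p-values rest on how class differences varied between these 2 hosts, with the spread largely pooled over genes. They do not measure variation between donors. Dividing cells made up 10.8% and 8.67% of TRBV26 cells and 15.6% and 12.9% of other cells, and cells with a Foxp3 UMI 8.49% and 12.96% against 22.3% and 22.1%. Without dividing cells 7 genes passed, 3 higher and 4 lower. NK cell markers summed to 6.02 and 8.50 CPM in TRBV26 cells and to 1.01 and 1.48 CPM in other cells. Without barcodes bearing at least 2 UMIs of B cell, macrophage, dendritic cell, erythroid or platelet markers 6 genes passed, 3 higher and 3 lower. NK cell and CD8 T cell markers were not part of this filter. Comparisons within Foxp3-negative cells and within classes of clonotype size are given below.

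TRBV23 cells, compared with the same other cells, were higher in Uqcr10, Atp5g2 and Atp5g1 and lower in Cox5a. Uqcr10 stood at 227 and 250 CPM (log2 fold change 0.22, SE 0.048, edgeR adjusted p = 0.012), Atp5g2 at 717 and 703 CPM (0.15, edgeR adjusted p = 0.018) and Atp5g1 at 248 and 268 CPM (0.16, edgeR adjusted p = 0.049). Cox5a stood at 404 and 348 CPM (log2 fold change -0.18, SE 0.045, edgeR adjusted p = 0.022). Thus 3 of 83 genes were higher, where 6.39% of all genes tested were higher, and 1 was lower, where 7.05% were lower. Ndufa9 at 59.3 and 55.9 CPM and Ndufa10 at 86.7 and 99.3 CPM missed the threshold (edgeR adjusted p = 0.13 and 0.15). Both contrasts share the sums of other cells, so their likeness is not separate evidence. Dividing cells made up 11.5% and 8.14% of TRBV23 cells and 15.6% and 12.9% of other cells. Without the block no gene passed, against 3.31% of all genes, and DESeq2 called none; 12 genes had an unadjusted p under 0.05 in the blocked fit. Erythroid markers summed to 3.70 and 265 CPM in TRBV23 cells against 7.04 and 7.75 CPM in other cells, and without barcodes bearing markers of other cell types 4 genes passed, 3 higher and 1 lower.

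TRBV26 and TRBV23 cells were then compared directly. edgeR called none of the 83 genes, and none had an unadjusted p under 0.05, while 0.0475% of all genes, 6 of 12631, were called. DESeq2 also called none. The 95% interval lay within ±0.32 on the log2 scale for 77 of the 83 genes, so differences beyond 1.25-fold between the V gene classes were not covered by the intervals of these 77. For Uqcr10 the log2 difference was -0.03 (interval -0.14 to 0.08), for Atp5g2 -0.03 (interval -0.11 to 0.06) and for Cox5a -0.03 (interval -0.13 to 0.07).

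**Figure D2:**
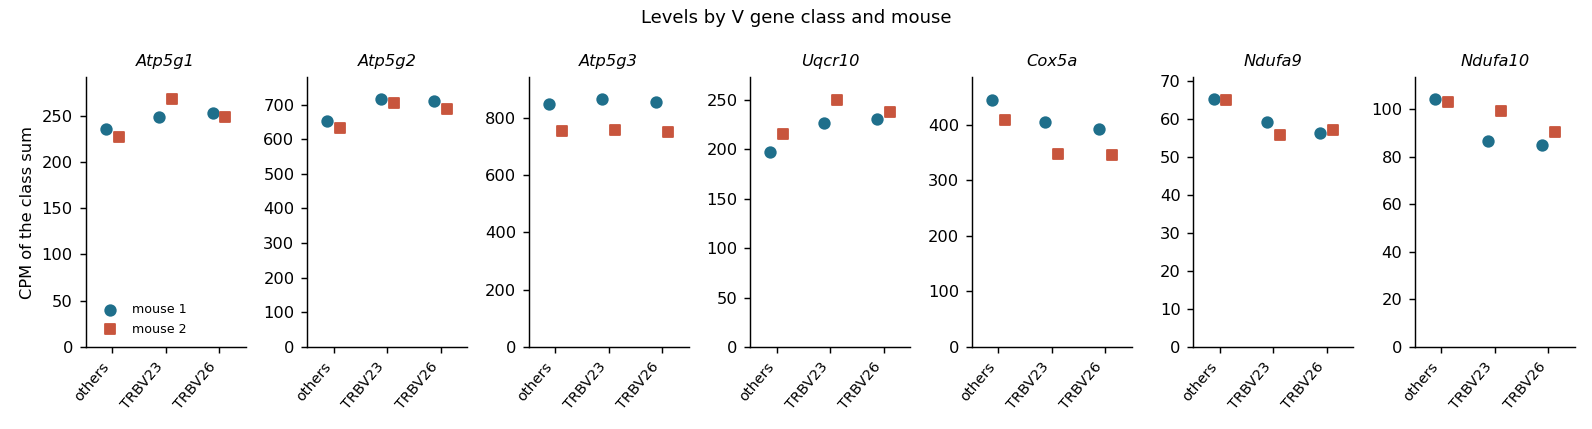
CPM of subunit c genes, Uqcr10, Cox5a, Ndufa9 and Ndufa10 in other, TRBV23 and TRBV26 cells, with 1 point per mouse and axes that start at 0. Uqcr10 and Atp5g2 lie higher in both V gene classes than in other cells, Cox5a lower, and Atp5g3 at like levels.

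Clonotype size and V gene were tied: of the cells in clonotypes of 10 or more, 1369 in mouse 1 and 1640 in mouse 2 were other cells, and 137 and 148 were TRBV26 cells. V gene classes were therefore compared within clonotypes of 1 cell and within clonotypes of 2 or more cells. Among clonotypes of 1 cell, TRBV26 cells had lower levels of Ndufa10, Ndufa9, Ndufa8, Uqcrfs1, Cox5a, Cox7a2l and Atp5b and higher levels of Ndufa5, Ndufa3 and Ndufa7, 10 of 81 genes, where 24.5% of all genes tested were called. Ndufa10 stood at 79.5 and 90.0 CPM against 107 and 119 CPM (log2 fold change -0.42, SE 0.079, edgeR adjusted p = 0.00072). Ndufa9 stood at 55.7 and 55.3 CPM against 71.9 and 72.3 CPM (-0.39, SE 0.074, edgeR adjusted p = 0.00086) and Uqcrfs1 at 153 and 136 CPM against 181 and 178 CPM (-0.32, SE 0.066, edgeR adjusted p = 0.0014). In each of these 3 genes both TRBV26 values lay below both values of the other cells. Without the block 2 genes passed, and DESeq2 called 4. After thinning to 3000 UMIs 6 genes passed, 5 higher and 1 lower, so most of the lower calls were lost. Median depths were 5365 and 6320 UMIs in these TRBV26 cells and 6510 and 7395.5 UMIs in these other cells. Dividing cells made up 6.76% and 6.54% against 14.1% and 12.9%. Among these single-cell clonotypes a Foxp3 UMI was present in 6.32% and 9.81% of TRBV26 cells and in 37.7% and 36.1% of other cells.

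Among clonotypes of 2 or more cells 1 gene passed, where 7.56% of all genes did. This was Uqcr10, at 237 and 246 CPM against 198 and 215 CPM (log2 fold change 0.23, SE 0.058, edgeR adjusted p = 0.017). Ndufa10 there stood at 90.5 and 91.2 CPM against 103 and 95.5 CPM and Ndufa9 at 57.1 and 59.7 CPM against 62.8 and 61.7 CPM. The change of the V gene difference with size was tested itself: 2 genes passed, where 10.9% of all genes did. Uqcrfs1 differed by 0.30 (SE 0.092, edgeR adjusted p = 0.048), being lower in TRBV26 cells among single cells and at 165 and 147 CPM against 168 and 152 CPM in expanded clonotypes. Atp5mpl, a small subunit of the ATP synthase, differed by 0.27 (SE 0.085, edgeR adjusted p = 0.049), from -0.13 among single cells to 0.14 in expanded clonotypes. Neither passed without the block or by DESeq2. For Ndufa10 the same test gave 0.30 with edgeR adjusted p = 0.10. The class of 2 or more cells was not of 1 size. Clonotypes of 10 or more cells held 1369 of its 2168 other cells in mouse 1 and 1640 of 2619 in mouse 2. Of its TRBV26 cells they held 137 of 945 and 148 of 798. Size was therefore not held equal in the contrast among expanded clonotypes or in the test of its change with size.

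Among cells without a Foxp3 UMI the lower genes were again Ndufa10, at 82.7 and 87.6 CPM against 105 and 106 CPM (log2 fold change -0.32, SE 0.069, edgeR adjusted p = 0.0026), Cox5a, at 383 and 329 CPM against 441 and 408 CPM (-0.26, SE 0.062, edgeR adjusted p = 0.0050), and Ndufa9, at -0.21 (edgeR adjusted p = 0.030). No gene was higher, and the 3 of 81 called compare with 19.7% of all genes tested. Uqcr10 stood at 225 and 235 CPM against 189 and 212 CPM (0.19, edgeR adjusted p = 0.055). Dividing cells made up 9.65% and 7.09% of these TRBV26 cells and 14.1% and 12.2% of these other cells.

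With clonotype size single genes differed by small steps. The number called higher was close to the share over all genes, and the number called lower was below it. Clonotypes of 10 or more cells, compared with clonotypes of 1 cell, were higher in Cox8a, Cox7a2, Cox5a, Cox5b, Cox6b2, Ndufb8, Ndufb7, Ndufa1, Ndufa4, Ndufa11, Uqcrb and Atp5j, and lower in Cox7a2l, which encodes a protein that links complexes III and IV, and in the assembly factor Ndufaf6. By edgeR with the block 12 of 83 genes were higher, where 13.5% of all 12701 genes tested were higher, and 2 were lower, where 13.9% were lower. Of the 83 genes 62 had a positive log2 fold change, with a median of 0.06. Without the block 3 passed, where 15.2% of all genes did, and DESeq2 called 4, all of them higher.

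Cox8a stood at 958 and 1039 CPM in clonotypes of 10 or more cells, 871 and 873 CPM in those of 2 to 9 cells and 837 and 819 CPM in those of 1 cell. The log2 fold change between the ends was 0.29 (SE 0.048, 95% interval 0.18 to 0.41, edgeR adjusted p = 0.0033). The middle class was close to single cells, at 0.06 (edgeR adjusted p = 0.51), and 10 or more cells differed from 2 to 9 cells by 0.23 (SE 0.048, edgeR adjusted p = 0.019). In both mice the 3 classes were in the order of size.

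Ndufb7, an accessory subunit of the membrane arm of complex I, took another course. It stood at 271 and 276 CPM in the largest clonotypes, 270 and 277 CPM in the middle class and 236 and 234 CPM in single cells. Both larger classes lay above single cells, by 0.25 (SE 0.044, edgeR adjusted p = 0.0053) and 0.21 (SE 0.044, edgeR adjusted p = 0.038), and from each other they differed by 0.04 (edgeR adjusted p = 0.65). Its neighbour in the membrane arm, Ndufb8, stood at 222 and 200 CPM in the largest class and 177 and 179 CPM in single cells (0.27, SE 0.055, edgeR adjusted p = 0.0091). Cox7a2 stood at 304 and 295 CPM against 255 CPM in both mice (0.25, SE 0.044, edgeR adjusted p = 0.0044).

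The promoters of Cox8a (chr19:7217567-7217866, minus strand) and Ndufb7 (chr8:83566508-83566807, plus strand) are printed with the marks used above, as those of the genes that passed in 2 of the 3 contrasts between sizes.
Cox8a: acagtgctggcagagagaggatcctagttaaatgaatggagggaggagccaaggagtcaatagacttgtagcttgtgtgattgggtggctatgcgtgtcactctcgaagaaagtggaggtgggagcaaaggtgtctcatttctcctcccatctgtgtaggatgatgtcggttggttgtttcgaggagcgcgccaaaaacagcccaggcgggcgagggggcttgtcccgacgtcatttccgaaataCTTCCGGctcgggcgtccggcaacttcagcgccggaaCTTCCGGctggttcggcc
Ndufb7: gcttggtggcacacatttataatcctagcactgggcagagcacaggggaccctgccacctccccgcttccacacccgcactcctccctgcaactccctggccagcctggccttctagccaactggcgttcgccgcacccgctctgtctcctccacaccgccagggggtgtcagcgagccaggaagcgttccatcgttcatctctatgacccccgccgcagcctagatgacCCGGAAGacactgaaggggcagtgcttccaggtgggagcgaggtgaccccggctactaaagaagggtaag
The Cox8a window held 2 ETS cores, starting 5 bases before and 32 bases after the start, and the Ndufb7 window held 1 ETS core starting 20 bases before it. No NRF1 core was found in either.

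Lower with size was Cox7a2l, at 267 and 252 CPM in clonotypes of 10 or more against 300 and 291 CPM in single cells (log2 fold change -0.16, SE 0.050, edgeR adjusted p = 0.047). In the middle class it stood at 252 and 265 CPM (-0.21, edgeR adjusted p = 0.058). Cox7a2, the subunit 7a that its protein resembles, was higher in the same cells. Ndufaf6 was lower, at 9.26 and 5.61 CPM against 12.1 and 11.8 CPM (-0.68, SE 0.18, edgeR adjusted p = 0.026), and the testis isoform Cox6b2 higher, at 1.69 and 2.47 CPM against 1.07 and 0.942 CPM (1.09, SE 0.33, edgeR adjusted p = 0.045). Neither of these low genes overlapped between the classes, and both rest on few UMIs.

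The other increases were smaller. Atp5j, coupling factor 6 of the ATP synthase, stood at 456 and 435 CPM against 405 and 396 CPM (log2 fold change 0.18, edgeR adjusted p = 0.016). Uqcrb, known as the ubiquinone-binding protein of complex III, stood at 234 and 230 CPM against 213 and 211 CPM (0.15, edgeR adjusted p = 0.038). Cox5b stood at 474 and 463 CPM against 417 and 431 CPM (0.17, edgeR adjusted p = 0.024), Ndufa1 at 0.18, Ndufa4 at 0.16 and Ndufa11 at 0.15. Atp5g2 stood at 662 and 613 CPM in the largest clonotypes against 696 and 688 CPM in single cells (-0.09, edgeR adjusted p = 0.16), and Atp5g3 at 885 and 745 CPM against 789 and 741 CPM (0.11, edgeR adjusted p = 0.14).

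**Figure D3:**
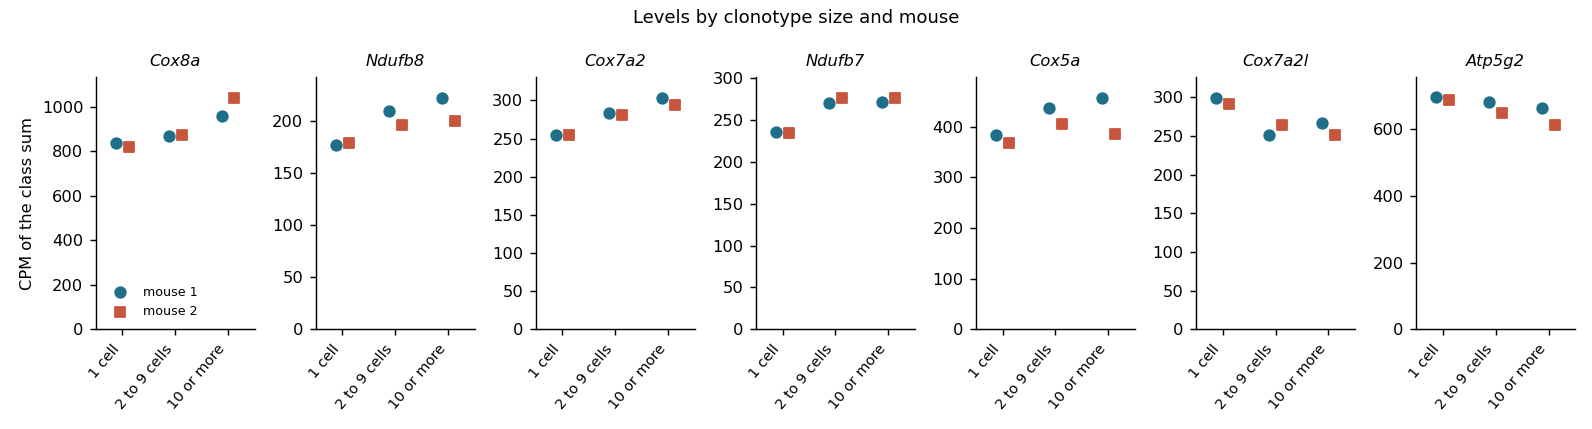
CPM of Cox8a, Ndufb8, Cox7a2, Ndufb7, Cox5a, Cox7a2l and Atp5g2 in clonotypes of 1 cell, 2 to 9 cells and 10 or more cells, with 1 point per mouse and axes that start at 0. Cox8a rises at 10 or more cells, Ndufb7 is already higher at 2 to 9 cells, and Cox7a2l is lower in both larger classes.

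Cells of 2 to 9 per clonotype had 1 gene called against single cells, Ndufb7, where 5.60% of all genes were called, and clonotypes of 10 or more had 1 called against those of 2 to 9, Cox8a, where 11.9% were. Among cells of neither V gene alone 8 genes passed for 10 or more against 1 cell, 5 higher and 3 lower. There Cox5a, at 456 and 386 CPM against 383 and 367 CPM in all cells (log2 fold change 0.19, edgeR adjusted p = 0.035), came to -0.0001, and Cox7a2 missed the threshold at edgeR adjusted p = 0.056. Without barcodes bearing macrophage markers or the other markers of that filter, again not those of NK cells, 8 genes passed, 7 higher and 1 lower. Macrophage markers summed to 45.8 and 64.4 CPM in clonotypes of 10 or more and to 25.7 and 18.3 CPM in single cells. Dividing cells made up 16.6% and 11.4% against 9.23% and 9.05%, and cells with a Foxp3 UMI 7.18% and 5.19% against 16.4% and 19.8%. Without dividing cells 12 genes passed, 7 higher and 5 lower, and the mean log2 ratio of the summed level was 0.01. Erythroid markers summed to 7.87 and 13.2 CPM against 4.87 and 70.6 CPM, and NK cell markers to 0.797 and 1.36 CPM against 5.00 and 6.22 CPM.

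In other cells, clonotypes of 2 or more against 1 cell gave 3 genes higher and 5 lower of 81, where 23.6% of all genes were called. Cox8a stood at 916 and 975 CPM against 794 and 800 CPM (log2 fold change 0.23, SE 0.052, edgeR adjusted p = 0.0030), with Ndufb8 at 0.23 and Ndufb7 at 0.18. Cox7a2l stood at 259 and 260 CPM against 316 and 322 CPM (-0.32, SE 0.058, edgeR adjusted p = 0.00057), with Ndufa9 at -0.23, Ndufa6 at -0.21, Atp5mpl at -0.21 and Uqcrfs1 at -0.19. Neither Cox8a nor Cox7a2l overlapped between the classes. Within TRBV26 cells the same contrast had none of 81 called by edgeR, where 7.55% of all genes were, none by DESeq2 and 9 at an unadjusted p under 0.05. Cox8a there stood at 877 and 898 CPM against 862 and 827 CPM (0.07, interval -0.04 to 0.18). Without the block 2 of 81 genes passed in other cells, 1 higher and 1 lower.

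The largest single clonotypes showed how far a clone could lie from the mean. With at least 50 cells there were 7 clonotypes in mouse 1, whose share of UMIs in the 89 genes ran from 1.87% to 2.23% (median 2.12%, SD 0.113), and 10 in mouse 2, from 1.77% to 2.09% (median 1.97%, SD 0.0999). The largest clonotype of mouse 1, 222 cells using TRBV31, had the lowest share there, with 10.4% of its cells dividing, and a TRBV16 clonotype of 51 cells the highest, with 27.5% dividing. In mouse 2 the lowest was a TRBV3 clonotype of 110 cells and the highest a TRBV2 clonotype of 103 cells. The largest there, 366 cells using TRBV29, stood at 1.97%, and a TRBV26 clonotype of 59 cells at 1.86%. The range over these clones was wider than the range over the classes.

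Foxp3-positive cells differed from the remaining cells at more genes than in the comparisons above, and in both directions. The numbers called higher and lower were both below the shares over all genes. Higher were all of the called complex III genes, subunit c gene Atp5g3 and the complex I subunits Ndufb7 and Ndufb8, and lower were Ndufa6, Atp5h and the assembly factor Ndufaf4. By edgeR with the block 16 of 83 genes were higher, where 22.3% of all 13073 genes tested were higher, and 10 were lower, where 20.4% were lower. Of complex I 7 genes were higher and 5 lower of 37, of complex III 4 and 0 of 8, of complex IV 1 and 1 of 13, of the ATP synthase 3 and 2 of 17, and of the assembly factors 1 and 2 of 8. The cells with a Foxp3 UMI, 919 in mouse 1 and 1146 in mouse 2, held markers of regulatory T cells: Il2ra stood at 137 and 196 CPM against 8.29 and 8.81 CPM, and Ctla4 at 614 and 766 CPM against 107 CPM in both mice. The 5074 and 5186 cells without such a UMI can include cells in which Foxp3 was transcribed but not captured. Markers of other cell types also differed: those of B cells summed to 10.8 and 19.1 CPM in Foxp3-positive cells against 1.14 and 1.91 CPM, those of CD8 T cells to 14.3 and 18.7 CPM against 7.94 and 5.97 CPM, those of macrophages to 18.9 and 18.4 CPM against 37.8 and 39.5 CPM, and erythroid markers to 5.89 and 132 CPM against 5.91 and 27.5 CPM. Without barcodes bearing markers of other cell types, a filter that did not use CD8 T cell or NK cell markers, 21 genes passed, 12 higher and 9 lower.

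In complex I, Ndufb7 stood at 299 and 315 CPM in Foxp3-positive cells against 247 and 244 CPM (log2 fold change 0.33, SE 0.054, 95% interval 0.22 to 0.44, edgeR adjusted p = 8.3e-09). Ndufb8 stood at 231 and 217 CPM against 194 and 183 CPM (0.26, SE 0.055, edgeR adjusted p = 1.8e-05). The core iron-sulphur subunit Ndufs8 stood at 150 and 146 CPM against 128 and 126 CPM (0.22, edgeR adjusted p = 0.00041). None of these overlapped between the classes, and Ndufa9, Ndufb9, Ndufv2 and Ndufa13 were higher by 0.24, 0.21, 0.14 and 0.12. Ndufa6, an accessory subunit of the matrix arm, was lower, at 218 and 246 CPM against 272 and 286 CPM (-0.26, SE 0.055, edgeR adjusted p = 9.9e-06). Ndufb10 stood at 164 and 155 CPM against 187 and 176 CPM (-0.18, edgeR adjusted p = 0.0041), and Ndufa3, Ndufc1 and Ndufv3 were lower by smaller steps of -0.17, -0.17 and -0.14.

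In complex III 4 of 8 genes were higher and none lower. Uqcr11 stood at 137 and 157 CPM against 115 and 127 CPM (log2 fold change 0.28, SE 0.058, edgeR adjusted p = 4.5e-06), and Uqcrb at 241 and 254 CPM against 218 and 210 CPM (0.22, edgeR adjusted p = 0.00032). Uqcrfs1 stood at 182 and 173 CPM against 162 and 147 CPM (0.20, edgeR adjusted p = 0.0010), and Uqcr10 at 238 and 235 CPM against 207 and 223 CPM (0.14, edgeR adjusted p = 0.026). All 4 were above the values of the remaining cells in both mice. Summed, the 8 genes stood at 1990 and 2020 CPM against 1865 and 1881 CPM.

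Complex IV changed at 2 genes: Cox5a stood at 456 and 417 CPM against 413 and 375 CPM (log2 fold change 0.15, edgeR adjusted p = 0.011), the lowest Foxp3-positive value just above the highest of the remaining cells, and Cox7a2l stood at 250 and 249 CPM against 280 and 279 CPM (-0.16, edgeR adjusted p = 0.011). Cox8a, higher with clonotype size, stood at 845 and 861 CPM against 889 and 902 CPM here (-0.07, edgeR adjusted p = 0.34). At matched depth, with Foxp3-negative cells drawn to match the Foxp3-positive cells over 10 bins of UMIs, the value of Cox5a was -0.03.

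In the ATP synthase the genes of subunit c moved apart. Atp5g3 stood at 963 and 862 CPM in Foxp3-positive cells against 828 and 725 CPM (log2 fold change 0.24, SE 0.053, 95% interval 0.14 to 0.34, edgeR adjusted p = 3.0e-05), higher in both mice. Atp5g1 stood at 222 and 223 CPM against 248 and 242 CPM (-0.13, SE 0.055, edgeR adjusted p = 0.045), and Atp5g2 at 669 and 646 CPM against 684 and 659 CPM (-0.02, edgeR adjusted p = 0.75). Atp5g3 thus made up 51.9% and 49.8% of subunit c transcripts in Foxp3-positive cells and 47.0% and 44.6% in the remaining cells, without overlap, while Atp5g1 made up 11.97% and 12.9% against 14.1% and 14.9%. Their sum stood at 1855 and 1731 CPM against 1760 and 1626 CPM. Of the promoter windows printed above, that of Atp5g3 alone held an estrogen-related receptor core, and that of Atp5g1 alone held no core. A link between these cores and the levels was not tested.

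The δ subunit Atp5d stood at 603 and 559 CPM against 522 and 496 CPM (log2 fold change 0.20, edgeR adjusted p = 0.00085), and Atp5mpl at 179 and 214 CPM against 165 and 184 CPM (0.18, edgeR adjusted p = 0.0053). Lower was Atp5h, subunit d of the stalk, at 552 and 525 CPM against 638 and 612 CPM (-0.21, edgeR adjusted p = 0.00031). Of the assembly factors Ndufaf4 stood at 19.8 and 17.6 CPM against 26.4 and 25.2 CPM (-0.46, SE 0.10, edgeR adjusted p = 2.5e-05) and Ndufaf8 at 48.3 and 53.7 CPM against 56.8 and 64.0 CPM (-0.24, edgeR adjusted p = 0.0020). Ndufaf7, a methyltransferase that acts on a complex I subunit, was higher, at 29.2 and 36.5 CPM against 27.3 and 30.3 CPM (0.20, edgeR adjusted p = 0.047). Ndufaf4 and Atp5h did not overlap between the classes, and Ndufaf7 did.

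**Figure D4:**
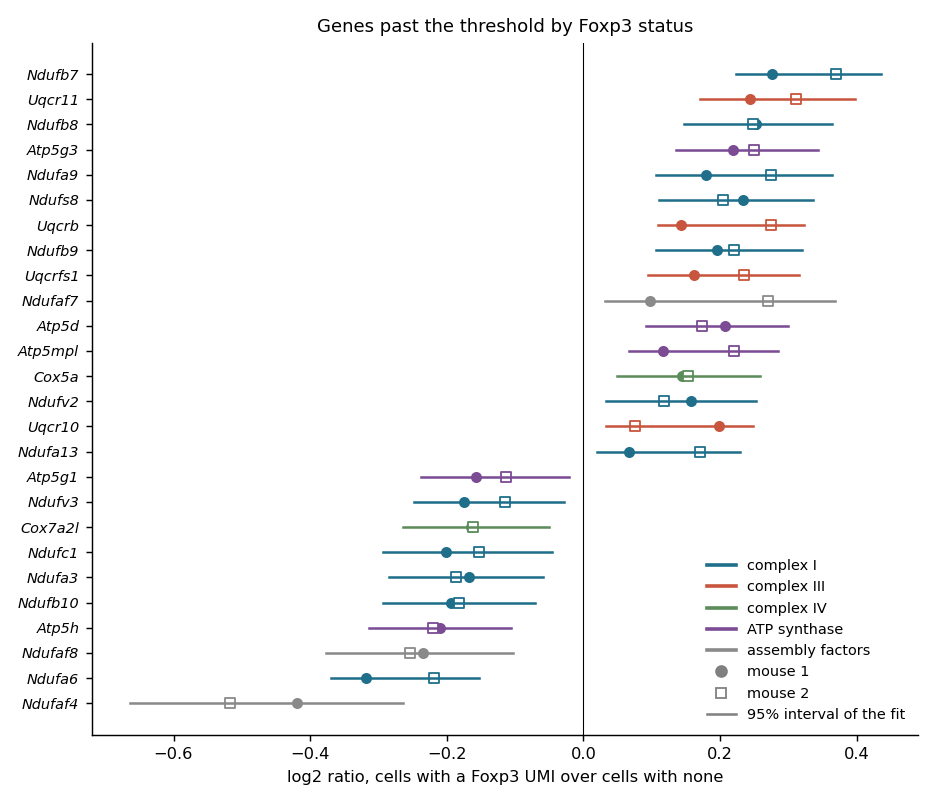
Log2 ratio of Foxp3-positive to remaining cells in mouse 1 and mouse 2 for genes past the threshold, coloured by complex. Ndufb7, Uqcr11 and Atp5g3 lie high in both mice and Ndufaf4, Ndufa6 and Atp5h low, and the 4 complex III genes lie above 0 in both.

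The Foxp3 comparison has 1 residual degree of freedom, and its spread was pooled fully over genes, so a gene's own variation between the mice carried no weight. Without the block 2 genes passed, 1 higher and 1 lower, where 23.8% of all genes did, and DESeq2 called 9, 7 higher and 2 lower. Foxp3-positive cells were deeper, at medians of 6338 and 6597.5 UMIs against 5522 and 6166, and more of them were dividing, 21.9% and 16.1% against 11.7% and 9.93%. At matched depth 14 genes passed, 5 higher and 9 lower, and the mean log2 ratio of the summed level was -0.02. Without dividing cells 30 genes passed, 17 higher and 13 lower, and that ratio was 0.01. After thinning to 3000 UMIs 20 genes passed, 9 higher and 11 lower.

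Within other cells the Foxp3 contrast called 10 of 81 genes, 5 higher and 5 lower, where 31.8% of all genes were called. Uqcr11 (log2 fold change 0.29), Uqcrb (0.22), Ndufb7 (0.21), Atp5g3 (0.19) and Ndufb9 (0.18) were higher, and Ndufaf4 (-0.57), Atp5h (-0.28), Ndufa6 (-0.26), Ndufb10 (-0.22) and Cox7a2l (-0.19) lower. Within TRBV26 cells 16 were higher and 1 lower of 81, where 28.3% of all genes were called. Ndufb7 stood there at 315 and 345 CPM against 238 and 235 CPM (0.50, SE 0.081, edgeR adjusted p = 0.00012) and Cox5a at 462 and 429 CPM against 383 and 329 CPM (0.33, SE 0.068, edgeR adjusted p = 0.0011). Median depths in TRBV26 cells were 6960 and 7674 UMIs with a Foxp3 UMI against 5331 and 6159.5, and 23.2% and 19.3% against 9.65% and 7.09% were dividing. In other cells the depths were 6019 and 6198 against 5616 and 6201 UMIs. After thinning to 3000 UMIs 5 genes passed within TRBV26 cells, 4 higher and 1 lower. Whether the Foxp3 difference itself changed with the V gene was tested: edgeR called none of 81 genes, where 3.89% of all genes were called, with 5 at an unadjusted p under 0.05, and DESeq2 called 1. Ndufa10 came closest, at 0.43 (SE 0.12, edgeR adjusted p = 0.053).

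**Figure D5:**
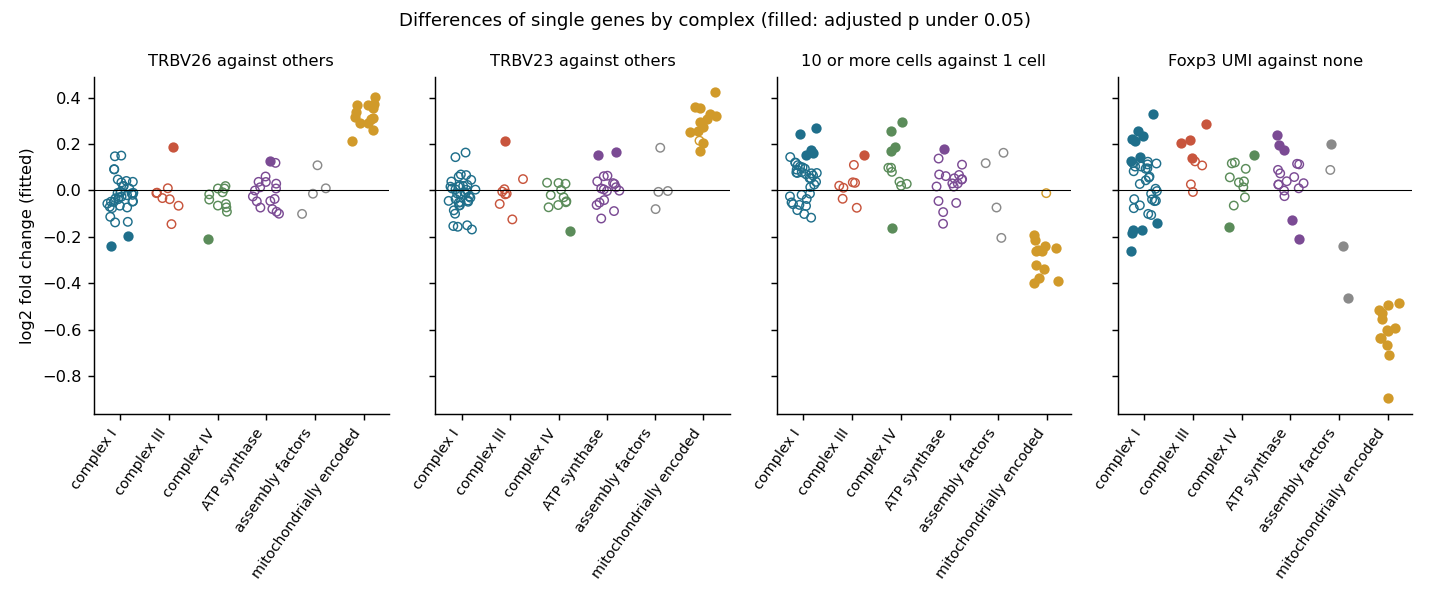
Fitted log2 fold change by complex of each tested nuclear gene with a mean of at least 20 CPM, and of the mitochondrially encoded subunits. The panels show TRBV26 and TRBV23 against other cells, 10 or more cells against 1 cell, and Foxp3-positive against remaining cells. Filled points have an edgeR adjusted p under 0.05. The low genes Cox6b2 and Ndufaf6 are not drawn, and the complex III genes in the Foxp3 panel are filled only above 0.

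The 13 subunits encoded by mitochondrial DNA differed more between the classes than their nuclear partners. In TRBV26 cells all 13 were higher than in other cells, with a median log2 fold change of 0.32. The cytochrome c oxidase core mt-Co1 stood at 4573 and 4748 CPM against 3812 and 3712 CPM, and mt-Nd2 of complex I at 715 and 854 CPM against 565 and 621 CPM (0.40, SE 0.040, edgeR adjusted p = 3.1e-05). In TRBV23 cells 12 were higher, with a median of 0.29. In clonotypes of 10 or more against 1 cell 12 were lower, with a median of -0.26, and in Foxp3-positive cells all 13 were lower, with a median of -0.60 and mt-Nd2 at 387 and 406 CPM against 691 and 792 CPM. Of all genes tested 8.80% were higher in TRBV26 cells and 6.39% in TRBV23 cells. In the largest clonotypes 13.9% were lower, and in Foxp3-positive cells 20.4%. Without the block 3, 2, 4 and 12 of the 13 subunits passed in these comparisons, where 4.49%, 3.31%, 15.2% and 23.8% of all genes did. Among cells of neither V gene 4 passed by size, 1 of them higher and 3 lower.

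Set against the nuclear genes, the mitochondrially encoded subunits had 0.939 and 1.05 UMIs per nuclear UMI in TRBV26 cells and 0.786 and 0.806 in other cells. The ratio was 0.625 and 0.614 in Foxp3-positive cells and 0.906 and 0.979 in the remaining cells, so neither comparison overlapped between the classes. All 13 were also lower in Foxp3-positive cells at matched depth. The share of these transcripts was itself a limit for keeping cells, at 10% of UMIs, and the part of cell quality in these differences was not tested.

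Nuclear genes that work beside the machinery were given as lists. For comparison, of all genes tested 8.80% were higher and 10.6% lower in TRBV26 cells, 13.5% and 13.9% in clonotypes of 10 or more cells, and 22.3% and 20.4% in Foxp3-positive cells. Of complex II none of 4 genes passed in TRBV26 cells, 1 was higher in the largest clonotypes, Sdhd at 105 and 92.7 CPM against 84.6 and 84.2 CPM, and in Foxp3-positive cells Sdhb and Sdhd were higher and Sdha lower. Sdhb, the iron-sulphur subunit, stood at 277 and 260 CPM against 220 and 197 CPM (log2 fold change 0.37, SE 0.055, edgeR adjusted p = 7.4e-11). Of cytochrome c and c1, Cycs was lower in TRBV26 cells, at 50.9 and 54.4 CPM against 64.1 and 59.7 CPM (-0.23, edgeR adjusted p = 0.032), and higher in Foxp3-positive cells, at 71.3 and 70.3 CPM against 56.0 and 53.8 CPM (0.37). Cyc1 passed in neither.

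Of the carriers of ADP, ATP and phosphate none of 3 passed by V gene or size, and in Foxp3-positive cells the carriers of adenine nucleotides went apart, Slc25a5 at 522 and 448 CPM against 457 and 399 CPM (log2 fold change 0.18) and Slc25a4 at 26.2 and 28.4 CPM against 38.5 and 37.5 CPM (-0.46). Of 16 regulators of mitochondrial biogenesis 1 was lower in TRBV26 cells, Myc, at 23.7 and 24.5 CPM against 29.0 and 30.3 CPM (-0.30, edgeR adjusted p = 0.015). In clonotypes of 10 or more 3 were lower, among them Myc at 22.3 and 11.1 CPM against 33.1 and 38.2 CPM, and in Foxp3-positive cells 3 were higher and 1 lower. Gabpb1, a subunit of an ETS family regulator of respiratory genes, stood at 60.7 and 63.5 CPM in Foxp3-positive cells against 41.1 and 38.8 CPM (0.65, SE 0.070, edgeR adjusted p = 3.5e-19), while Ppargc1a, the coactivator known from muscle and fat, had at most 0.0844 CPM. Of 43 other assembly factors 3 were higher and 1 lower in TRBV26 cells, including Uqcc3 for complex III (0.30) and Cox14 for complex IV (0.29), 5 and 4 in the largest clonotypes, and 3 and 7 in Foxp3-positive cells.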

How the data were processed

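The tool and builds named per the submitters' processing notes are Cell Ranger 7.0.1, mm10 and GRCm38. The deposited matrices contain raw UMI counts of each gene in each barcode, not normalized, and the deposited receptor tables contain read and UMI counts of assembled contigs. Gene identities are those of the deposited tables, and promoter sequences and coordinates come from RefSeq on GRCm38.p6.

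Kept cells had at least 500 genes, at most 10% mitochondrial UMIs and exactly 1 TRB contig. Barcodes with 2 or more TRB contigs, 708 in mouse 1 and 702 in mouse 2, were left out as possible doublets, and no doublet caller was run. A clonotype was the same TRBV, TRBJ and TRB CDR3 nucleotides in 1 mouse. For each mouse and class UMI counts were added up without 255 T cell receptor segment genes, giving 4813415 to 26314147 UMIs per sum in the V gene classes. The sums were tested across all genes with edgeR 4.0.16 (TMM, filterByExpr, quasi-likelihood F test, Benjamini-Hochberg adjustment over all genes tested, threshold 0.05) in R 4.3.3, with DESeq2 1.42.0 as an alternative and limma 3.58.1 loaded by edgeR. Classes were paired because both came from the same animal, so the mouse was a block. Fitted residual and prior degrees of freedom were 2 and 9.52 for V gene, 2 and 5.73 for size, and 1 and infinite for Foxp3. Levels in CPM were computed from the sums, and tables and plots were made with Python 3.11.15, numpy 2.4.6, pandas 2.3.3, scipy 1.17.1 and matplotlib 3.10.9. The V gene fit was tested on simulated data.

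The rule for named genes took, of each complex, the 3 highest and 3 lowest log2 fold changes of TRBV26 against other cells at 20 CPM or more, the 3 highest and lowest for size and for Foxp3, the isoform genes and the 2 genes of each further list with the smallest p. Other genes are named because they passed a test, after their values were seen. The genes, lists, motifs and comparisons were chosen with earlier results of these data known. Alternatives were normalization, filters, the block, thinning, depth matching, leaving out dividing, deepest or marker-bearing barcodes or large clonotypes, and limits on cells per clonotype. Pooling of donor cells is not stated in the labels. The 16 genes without a promoter entry were left out of motif counts.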

Additional observations from a re-analysis of the deposited data

Results flagged for a closer look

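The difference between TRBV26 and other cells changed with clonotype size, by a test of that change in edgeR (adjusted p under 0.05), at 2 of 81 nuclear genes and 1 of 13 mitochondrially encoded subunits, where 10.9% of all genes tested passed. For Uqcrfs1 the log2 difference was higher in expanded than in single-cell clonotypes by 0.2962, and for Atp5mpl by 0.2727. For the mitochondrially encoded mt-Nd5 the change was -0.2396. The nuclear calls numbered 0 without the replicate block, by DESeq2, without the low filter and without the 5 largest clonotypes. After thinning to 3000 UMIs 1 nuclear gene passed, and it was lower. The log2 difference changed with Foxp3 status at the mitochondrially encoded mt-Co1, by -0.3621, and mt-Nd4l, by -0.3947, taken as the value in Foxp3-positive cells minus that in cells without a Foxp3 UMI.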

How the results depend on the processing

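Numbers of the 83 or 81 genes that passed changed as follows, among other settings without the mouse as a replicate block. For TRBV26 against other cells 5 genes passed, without the replicate block 0, with DESeq2 1, without a filter on low counts 8, and with TRBV23 among the other cells 10. For TRBV23 4 passed, without the block 0, with DESeq2 0, with 1 cell per clonotype 7 and with at most 10 cells per clonotype 0. For 10 or more against 1 cell 14 passed, without the block 3, with DESeq2 4, without barcodes bearing other cells' markers 8 and among neither V gene 8. For 2 to 9 cells the 1 call became 0 without the block, by DESeq2, without dividing cells, thinned and with sizes of 1, 2 to 4 and 5 or more, 2 without the low filter, at 20 CPM or more, without the 5 largest clonotypes and among neither V gene, and 5 with at most 10 cells per clonotype. For 10 or more against 2 to 9 cells the 1 call became 0 without the block and 2 without dividing cells or the 5% deepest. For Foxp3 26 passed, without the block 2, with DESeq2 9 and at matched depth 14.

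Within groups, the 10 calls by V gene among single cells became 2 without the block, 4 with DESeq2 and 6 thinned, 5 of them higher and 1 lower. The 1 among expanded clonotypes became 0 without the block, by DESeq2 and without the 5 largest clonotypes. By size among other cells the 8 became 2 without the block and by DESeq2, and 14 without dividing cells or the 5% deepest. By V gene among Foxp3-negative cells the 3 became 1 without the block and 7 without dividing cells or with 1 cell per clonotype. By Foxp3 the 10 among other cells became 2 without the block, and the 17 among TRBV26 cells became 3 without the block, 11 without the low filter or with 1 cell per clonotype and 5 thinned. The 2 changes of the V gene difference with size, both higher, became 0 without the block, by DESeq2, without the low filter and without the 5 largest clonotypes. They became 1 with library sizes alone, which was higher, and 4 without dividing cells. Thinned, neither passed as higher, and 1 gene passed as lower. The 0 changes with Foxp3 became 1 by DESeq2 or without marker-bearing barcodes and 3 with 1 cell per clonotype. Of 13 mitochondrially encoded subunits, the 13 in TRBV26, 12 in TRBV23 and 12 by size became 3, 2 and 4 without the block, and those by size 4 among neither V gene, 1 higher and 3 lower.

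The summed log2 ratio by size, 0.0404, was 0.0100 without dividing cells, and that by Foxp3, 0.0427, was 0.0117 without dividing cells, -0.0068 without the 5% deepest, 0.0107 thinned and -0.0189 at matched depth. Cox5a turned to -0.0001 by size among neither V gene and to -0.0281 by Foxp3 at matched depth. With each mouse left out in turn the summed ratio ran from -0.0417 to -0.0064 for TRBV26, from -0.0440 to 0.0157 for TRBV23, from 0.0206 to 0.0602 by size and from 0.0293 to 0.0562 by Foxp3, with no test. Over 226 named results 2777 values kept direction and side of the threshold, 134 fell below it, 72 rose above it, 55 moved and 2 reversed. As results or settings, the limit of 10 cells per clonotype, the contrast of 10 or more with 2 to 9 cells and the counts for mitochondrially encoded subunits were chosen after seeing the data, and the causes of these changes were not tested.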

Other observations

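Other mitochondrial pathways also held single genes with larger differences than the respiratory subunits. Of all genes tested 8.80% were higher and 10.6% lower in TRBV26 cells, 13.5% and 13.9% in clonotypes of 10 or more cells, and 22.3% and 20.4% in Foxp3-positive cells. In fatty acid oxidation 3 of 17 genes were higher in TRBV26 cells and none lower. Decr1, a reductase for unsaturated fatty acids, stood at 35.7 and 47.9 CPM in TRBV26 cells against 20.9 and 25.04 CPM in other cells (log2 fold change 0.87, SE 0.076, edgeR adjusted p = 1.2e-05). The same gene was lower in clonotypes of 10 or more cells than of 1 cell, by a log2 fold change of -0.56, and lower in Foxp3-positive cells, at 16.1 and 18.0 CPM against 30.9 and 39.3 CPM (-1.04). Hadhb, of the trifunctional protein, was higher in TRBV26 cells by 0.22. Clonotypes of 10 or more had 3 genes of the list higher and 3 lower, and Foxp3-positive cells 3 and 6. In the TCA cycle 1 of 17 genes passed in TRBV26 cells, Idh3a, a subunit of the NAD-dependent isocitrate dehydrogenase, lower at 71.8 and 65.3 CPM against 96.9 and 89.2 CPM (-0.44, SE 0.061, edgeR adjusted p = 0.00038). By size 2 were higher and 2 lower, with Idh3a higher by 0.37, and by Foxp3 status 2 and 2.

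In coenzyme Q synthesis Coq8b and Pdss1 were lower in TRBV26 cells, at log2 fold changes of -0.50 and -0.49, and 1 of the 13 genes was higher. Coq8b was higher in clonotypes of 10 or more cells, at 36.8 and 31.0 CPM against 20.7 and 19.5 CPM (0.77), as were 3 further genes of the list, and 4 were lower in Foxp3-positive cells. Of 78 genes of the mitochondrial ribosome 4 were higher and 6 lower in TRBV26 cells, among the higher Mrps6 (0.35) and Mrpl52 (0.29), with 7 and 6 by size and 14 and 8 by Foxp3 status. Of 8 mitochondrial antioxidant genes Ucp2 was higher in TRBV26 cells (0.14), 1 was higher by size, and 2 were higher and 1 lower in Foxp3-positive cells.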
